A study of Drosophila melanogaster with 12 samples.

Results

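Salivary glands null for Rif1 were set directly against salivary glands mutant for SuUR, mutant against mutant, over the whole length of the major chromosome arms. The comparison used 4 of the 12 libraries in the series, 2 per genotype (n = 2 throughout), and all 118985 windows on the 5 major arms (X and both arms of chromosomes 2 and 3) out of 120166 windows in the table, taken as 2382 consecutive bins of 50 windows. The libraries held genomic DNA of pooled salivary glands, dissected with no treatment from about 20 female Drosophila melanogaster larvae per genotype in the last instar, before wandering. The SuUR animals carried the mutant allele SuUR-ES in a w118 background, and the Rif1 animals carried the null alleles Rif1-1 and Rif1-2 over each other in a w118 background. Wild-type Oregon R glands, a strain of another origin, gave 2 further libraries that were used only to sort windows into classes and as a level beside the mutants. The methods thus give the mutants a shared background that the wild type does not have, which is the reason for comparing the mutants with each other. Nothing in the sample descriptions says whether same-numbered libraries were prepared together, so the errors given are the spread between libraries.

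Salivary gland cells are polytene: they copy their DNA repeatedly without dividing, and stretches that are not copied to the end in each round stay underreplicated. SUUR is a chromatin protein of late-replicating DNA that slows replication forks there, and Rif1 is a partner of protein phosphatase 1 that delays the firing of origins in late-replicating DNA in yeast, flies and mammals. Rif1 has also been placed together with SUUR at replication forks in the same glands, so loss of either protein raises the copy number of underreplicated DNA, and the direct comparison asks where the profiles of the glands differ once underreplication is relieved by one route or by the other. The measure was rawRT, a score for each window of 1000 uniquely alignable bases that the authors set to a mean of about 0 and an SD of about 1 in DNA outside the underreplicated regions. A higher score stands for more copies. Copying later and copying less completely lower the score alike and cannot be told apart in these libraries.

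The targeted genes were looked at first. Rif1 spans 6 windows, and both Rif1 libraries had a score in 2 of them, whereas both SuUR libraries and both wild-type libraries had a score in all 6. The 4 windows without a score lay next to each other inside the gene. The authors removed outlier windows library by library, so an absent score is not a measured copy number. Over the windows of Rif1 that remained, the median rawRT was -1.21 and -1.33 in the Rif1 libraries against 0.861 and 1.05 in the SuUR libraries. The SuUR gene (3L:11064991-11069025 in dm6) had scores in all 6 of its windows in all 6 libraries, with 0.949 and 0.107 in Rif1 and 0.103 and 0.615 in SuUR, so its coverage does not check the SuUR label. Over the arms, 130 windows lacked a score in both Rif1 libraries while the other 4 libraries had one, and 86 windows lacked one in both SuUR libraries alone. The longest such stretches in Rif1 were 19 windows at 3L:7477000-7496000 (66A, mthl6 to Cyp4d8) and 18 windows at 3L:7503600-7521600 (66A, CG7548 to ltl), and the longest in SuUR was 9 windows at 3R:23929000-23938000 (95C-95D, CG43999 to Gdh). A further stretch of 8 windows at X:2794100-2802100 lacked scores in both Rif1 libraries and reached into w, the white eye-colour gene that names the background. Of the 7 windows of w, 4 had a score in each Rif1 library and 7 in each SuUR and each wild-type library. The mutants thus differed in scored windows at w although the methods give them the same background. Other strain differences between the mutants were not tested. These stretches were picked after their values were seen.

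The longest runs of bins in each direction are described further on, and the window with the most extreme difference in the first run of each direction is shown here to give the DNA behind the score. Both sequences are the central 200 bases of the window on the plus strand of the RefSeq assembly that corresponds to dm6, with no base marked. The deposited coordinates are rounded to 5 significant digits, so a window's true ends can lie up to about its own length away.
Lower in Rif1, 3L:565791-565990: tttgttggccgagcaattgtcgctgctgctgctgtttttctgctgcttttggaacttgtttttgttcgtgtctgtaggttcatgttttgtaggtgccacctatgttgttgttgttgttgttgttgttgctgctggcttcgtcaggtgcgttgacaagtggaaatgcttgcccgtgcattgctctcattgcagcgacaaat
Higher in Rif1, 3L:10463401-10463600: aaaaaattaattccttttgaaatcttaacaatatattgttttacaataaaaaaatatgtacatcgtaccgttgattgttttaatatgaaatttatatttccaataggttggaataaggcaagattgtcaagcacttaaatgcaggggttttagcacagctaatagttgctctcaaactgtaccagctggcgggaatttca
The first lies in an intron of Hipk, which encodes a homeodomain-interacting protein kinase, and its 200 bases held 46.5% G and C. Its window scored -3.90 and -3.66 in Rif1 against 1.56 and 0.759 in SuUR. The second overlaps no annotated gene, held 30.5% G and C, and its window scored 2.65 and 0.652 in Rif1 against -2.43 and -1.14 in SuUR. Single windows are the noisiest level of the data, and these were chosen as extremes.

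The mutant libraries were alike in coverage of the table, with a score in 115492 to 117093 of the windows on the arms. The files hold no read counts, so the depth is unknown. Over bins that lay wholly outside underreplicated DNA, the profile varied less along the chromosomes in Rif1 than in SuUR: the SD of bin means was 0.476 and 0.547 for Rif1, 0.613 and 0.568 for SuUR, and 0.730 and 0.788 for the wild type. The Rif1 and SuUR libraries did not overlap in this SD, nor in the autocorrelation of neighbouring windows in that DNA, which was 0.395 and 0.458 in Rif1 and 0.683 and 0.536 in SuUR. Across those bins the 2 Rif1 libraries correlated with each other at Pearson's r = 0.856 and the 2 SuUR libraries at r = 0.852, while a Rif1 library and a SuUR library correlated at 0.436 to 0.627. The mean SuUR profile followed the wild type at r = 0.772 and the mean Rif1 profile followed it at r = 0.378. These are descriptions over bins, which share libraries and base composition and are not independent. Bins of 1 library are not replicates of a genotype.

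Across the arms, Rif1 scored higher than SuUR in more bins than it scored lower. An analysis of variance was run on the windows of each bin, with genotype as its one factor (Bonferroni adjusted p below 0.01, neighbouring bins merged, merged regions over 200 kb kept). By this test 510 of 2382 bins differed between Rif1 and SuUR, 21.4% of all bins. Of these, 383 were higher in Rif1 (16.1% of all bins) and 127 were lower (5.33%). Windows of 1 library are not replicates, so bin means were taken for each library and tested with limma as a second test, with libraries as the replicates. Of 2351 bins with at least 25 windows scored in each library, 601 passed a Benjamini-Hochberg adjusted p of 0.05, or 25.6%, with 444 higher in Rif1 (18.9%) and 157 lower (6.68%). Before the adjustment, 913 bins had p below 0.05. Of the 510 bins of the analysis of variance, 460 were also called by limma. Both Rif1 libraries lay above both SuUR libraries in 935 tested bins (39.8%) and below both in 617 (26.2%).

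**Figure D1:**
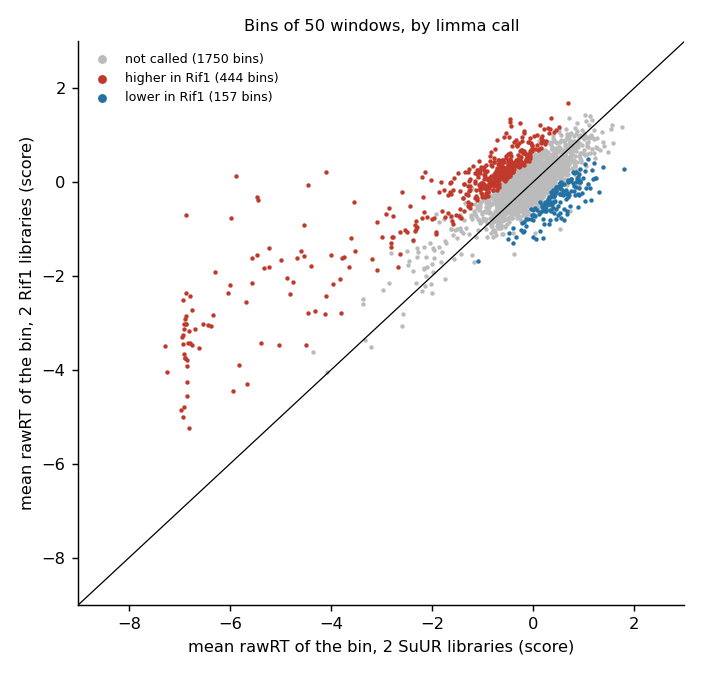
Mean rawRT of each bin of 50 windows in the 2 SuUR libraries (x axis, score) and the 2 Rif1 libraries (y axis, score), coloured by limma call, with the line of equal scores; 6 of 2351 bins lie outside the axes. Bins with low SuUR scores lie far above the line, and the 157 bins called lower in Rif1 form a band under the line around SuUR scores near and above 0.

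The balance of directions moved under 1 of 2 rescalings, and the counts moved with single libraries. With each library divided by the SD of its own profile, 73.0% of the bins of the analysis of variance and 72.9% of the limma calls were higher in Rif1. With quantile normalization, which gives the 4 libraries one distribution, the shares were 52.6% and 51.1%, against 75.1% and 73.9% on the deposited scale, while all 127 and all 157 lower bins kept their call and direction. With 1 library left out, limma called 158 bins without Rif1 replicate 1, 243 without Rif1 replicate 2, 305 without SuUR replicate 1 and 396 without SuUR replicate 2. The lower calls went from 157 to 13, 47, 68 and 63 in the same order, and the lower bins of the analysis of variance from 127 to 50, 98, 85 and 60. The lone library of an arm is then assumed to vary like the 2 of the other.

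Underreplicated DNA scored higher in Rif1 than in SuUR. Windows were classed from the wild-type libraries, which enter neither mutant mean but whose profile follows that of SuUR more closely than that of Rif1. In all, 9409 windows lay in 46 underreplicated regions outside the block that adjoins the centromere (eUR) and 2766 in that block of pericentric heterochromatin (PH). The other 106810 were named fully replicated (FR). The name means only that they were not classed by the wild-type limit of -2.85. FR can thus hold DNA with low wild-type scores. Of the eUR regions, 15 with 4379 windows lie in the cytological divisions next to the centromeres, so the name eUR does not make them euchromatin. In FR the median score was 0.0088 and -0.072 in Rif1 and 0.023 and -0.134 in SuUR, a difference of 0.023 that lies within the overlap of the libraries. In eUR the median was -0.319 and -0.539 in Rif1 and -1.77 and -1.49 in SuUR, with the wild type at -5.06 and -5.88. Both Rif1 libraries lay above both SuUR libraries, by 1.20 on average (Rif1 SD 0.156, SuUR SD 0.199, n = 2). The difference was 0.668 with a wild-type limit of -1. In PH the median was -2.99 and -3.46 in Rif1, -6.13 and -7.44 in SuUR, and -7.43 and -8.61 in the wild type. Rif1 was above SuUR by 3.56 (Rif1 SD 0.33, SuUR SD 0.923), and 1 of the SuUR libraries reached the range of the wild type. The PH difference was 0.876 under quantile normalization, 1.40 with a limit of -1, and 5.25 with each library divided by the SD of its profile, so its size rests on the scale. Comparing 2 libraries with 2 in an exact two-sided permutation test cannot give a p below 0.333, so the class medians are given without one.

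The eUR regions next to the centromeres and the 31 others, a split made after seeing the data, differed in level. In the 15 regions at the chromosome bases the median was -1.20 and -1.63 in Rif1 and -3.56 and -3.26 in SuUR, a difference of 1.99. In the 31 others it was 0.134 and 0.080 in Rif1 and -0.861 and -0.818 in SuUR, a difference of 0.947, with the wild type at -4.35 and -5.23. Away from the chromosome bases the Rif1 medians of eUR, pooled over the arms, thus lay just above 0. By arm they were 0.137 and 0.207 on 2L and 0.276 and 0.303 on 3L. They lay on both sides of 0 on X (0.078 and -0.147) and 3R (0.089 and -0.065), and were -0.565 and -0.361 on 2R.

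In eUR bins, 154 of 191 were called higher by limma and 1 was called lower, and in PH 49 of 55 tested bins were called higher and 0 lower, against the 18.9% and 6.68% of all bins. Both Rif1 libraries lay above both SuUR libraries in 182 eUR bins and 51 PH bins and below both in 1 and 0, against 39.8% and 26.2% of all bins. The eUR windows spread over the quartiles of the whole profile differently in the mutants. In the latest quartile lay 38.2% and 42.6% of eUR windows for Rif1, 66.9% and 66.4% for SuUR, and 99.8% for both wild-type libraries. In the earliest quartile lay 21.3% and 19.0% of them in Rif1 and 3.71% and 4.63% in SuUR. Of PH windows, 86.1% and 89.7% were in the latest quartile in Rif1 and 97.2% and 96.9% in SuUR.

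The size of the eUR difference varied among arms. On 2R the eUR median was -1.73 and -1.97 in Rif1 and -4.91 and -4.85 in SuUR, a difference of 3.03. Of its 1793 windows 1565 were in regions next to the centromere, which differed by 3.08, and the 228 others differed by 1.20. The other arms had eUR differences of 0.825 on X, 1.25 on 2L, 1.58 on 3L and 0.654 on 3R, and on each of the 5 arms the Rif1 libraries lay above the SuUR libraries. On 2L the eUR medians of Rif1 were 0.049 and 0.025, level with FR, and those of SuUR were -1.30 and -1.12. In PH the difference ran from 0.614 on 2L and 1.26 on 3L to 1.98 on 2R, 3.46 on 3R and 6.35 on X.

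**Figure D2:**
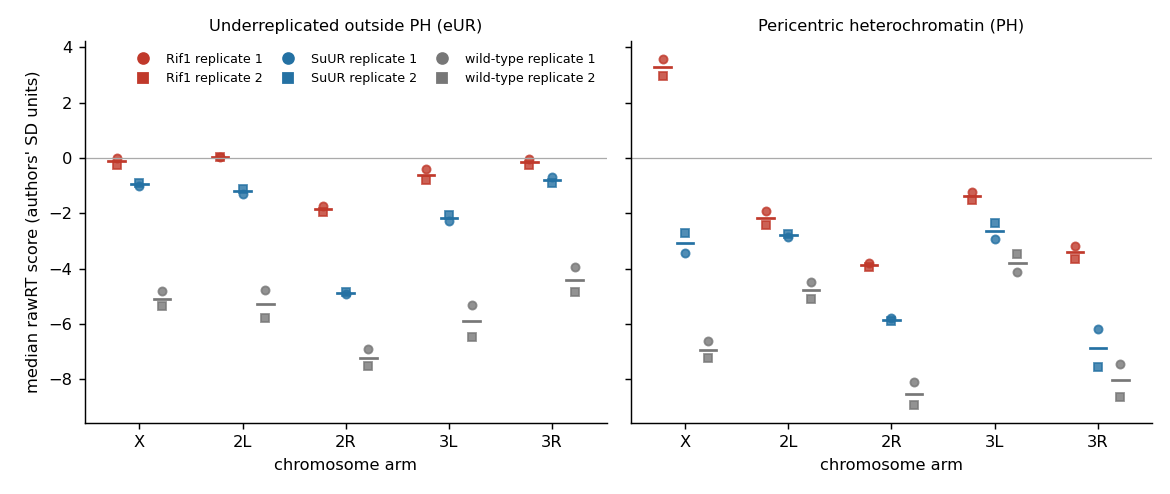
Median rawRT (y axis, score) of eUR windows (left) and PH windows (right) on each chromosome arm (x axis) in each library; circles and squares are replicates 1 and 2 and short lines their means. Rif1 lies above SuUR on every arm in both classes, with PH on X the only arm and class in which the Rif1 libraries pass 0 by more than 1.

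In Rif1 the PH of X had a higher median than the PH of any other arm, which was not so in SuUR or the wild type. Of the 134 PH windows of X, a stretch of 65 at the base of the arm, X:23335000-23539000, stood out. Its only feature listed as a gene is the microRNA mir-10404-5, and pseudogenes and repeats were not looked up. The median score there was 25.3 and 18.1 in Rif1, -4.31 and -4.76 in SuUR, and -6.72 and -7.35 in the wild type. In this stretch 40 and 36 windows scored above 10 in the Rif1 libraries and 0 in each of the other 4, and the highest window reached 131 in Rif1 replicate 1. Over the arms 137 and 116 windows scored above 10 in Rif1, 14 and 23 in SuUR and 4 and 5 in the wild type. The stretch was picked after its values were seen, and 1 of its 2 bins was called by limma. Leaving out windows beyond 10 in either direction, an alternative chosen after seeing the data, left 516 variant bins and 598 limma calls.

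By region, both Rif1 libraries lay above both SuUR libraries in 42 of the 46 eUR regions and below them in 0, and they overlapped in 4. With a wild-type limit of -1 there were 95 regions, and both Rif1 libraries lay above both SuUR libraries in 67 of them. Single bins gave such separation in 39.8% and 26.2% of cases, but a region is not a bin, and its median is less noisy where it holds more windows. Of the 15 regions at the chromosome bases 14 were above, and of the 31 others 28. The median difference over regions was 0.983, with quartiles of 0.685 and 1.29. The mean score of Rif1 was above 0 in 20 regions and that of SuUR in 2. By the quartiles of single windows in each genotype's own profile, 16 regions were in the latest quartile in Rif1 and 28 in SuUR. In the earliest quartile were 5 in Rif1 and 0 in SuUR.

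The regions of 2L between bands 35B and 36D, which include genes for cell-surface proteins of neurons, were all among those without overlap. The region of CadN, encoding N-cadherin (2L:17536000-17956000, 36C-36E), had the largest difference of them, with medians of 0.084 and 0.231 in Rif1, -1.88 and -1.44 in SuUR and a wild-type mean of -6.62. Rif1 was 1.82 higher, and the median of the region minus that of its flanks was -0.388 in Rif1 and -1.05 in SuUR. The region at 36B-36C with beat-IIIc, of the beaten path immunoglobulin family, gave -0.098 and -0.042 in Rif1 and -1.41 and -1.18 in SuUR. The small regions in 35D gave similar values. The region of wor, a snail-family transcription factor gene (2L:15354000-15486000), scored 0.491 and 0.749 in Rif1 and -0.730 and -0.827 in SuUR. That of kek3, a gene of a transmembrane protein (2L:15519000-15642000), scored 0.237 and 0.406 against -1.34 and -1.17, and that of t-Grip91 (2L:15783000-15873000) scored 0.070 and 0.057 against -1.79 and -1.37. The region of side-II in 35B (2L:14723000-14952000) and that of beat-Ib in 35D-35E (2L:15951000-16208000) differed by 1.18 and 1.22. Over the 7 regions the library medians lay between -0.098 and 0.749 in Rif1 and between -1.88 and -0.730 in SuUR.

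Next to the heterochromatin, the 3 largest region differences outside 2R were found. The region of CG42598 at 80F on 3L (3L:26031000-27069000) scored -0.544 and -1.07 in Rif1, -4.44 and -5.04 in SuUR and -7.30 on average in the wild type. The region of CG40813 at 20A-20B (X:21637000-22436000) scored -1.81 and -1.8 against -4.49 and -4.75, and the region of Snap25, a synaptic membrane fusion protein gene (3L:24053000-25094000), scored -1.29 and -1.89 against -3.36 and -3.50. At the other end, 2 regions of 2L overlapped. The region at 39D that runs from nrv3, a Na,K-ATPase subunit gene, into the histone gene cluster (2L:21383000-21442000) scored -2.78 and -2.24 in Rif1 and -3.15 and -1.44 in SuUR, the one region whose mean was lower in Rif1. The region of fipi in 25A (2L:4673400-4750400) scored 0.082 and 0.189 against 0.224 and -0.136, so both mutants were near 0 there while the wild-type mean was -3.28. The regions of SKIP (3R:22145000-22252000), at 0.077 and -0.094 against -0.274 and -0.317, and of hth, a Hox cofactor gene (3R:10502000-10609000), at -0.175 and -0.370 against -0.489 and -0.895, differed by 0.287 and 0.419.

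The difference between the mutants did not start at the edges of eUR. From 200 to 180 windows outside an edge the median score was 0.321 and 0.170 in Rif1 and -0.154 and -0.295 in SuUR, with the wild type at -0.254 and -0.388. Within 20 windows outside the edge it was 0.062 and -0.129 in Rif1, -0.911 and -0.870 in SuUR, and -2.02 and -2.34 in the wild type. In the first 20 windows inside it was -0.049 and -0.316 against -1.12 and -1.02, and from 100 to 120 windows inside it was -0.231 and -0.458 against -1.72 and -1.40. The difference thus went from 0.470 far outside to 0.886 just inside and 1.22 at that depth, which 19 of the 46 regions reach, and the Rif1 and SuUR libraries overlapped at none of the 20 distances. From 180 to 200 windows inside, which 6 of the regions reach, Rif1 was at -0.889 and -1.62 and SuUR at -3.75 and -3.72.

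**Figure D3:**
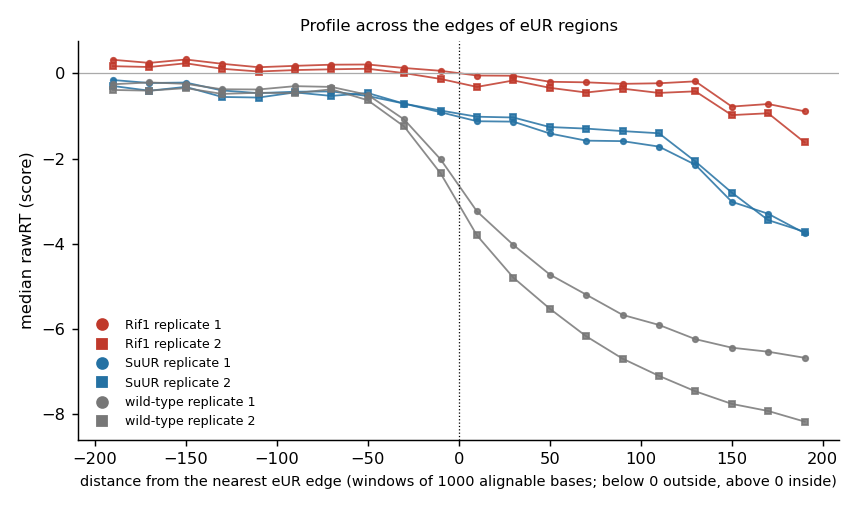
Median rawRT (y axis, score) of windows by their distance from the nearest eUR edge (x axis, windows of 1000 alignable bases, negative outside and positive inside) in each of 6 libraries. From the outermost distance to 60 windows inside, the mean of Rif1 runs between 0.283 and -0.267, and SuUR declines from -0.224 on average at the outermost distance to -1.07 just inside, and 42 to 46 regions contribute within 60 windows outside.

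Outside the DNA classed as underreplicated, the calls went in both directions, and they followed the wild-type score. In FR bins limma called 217 higher and 156 lower of 2062, and the analysis of variance 179 higher and 127 lower of 2091, so all 127 lower bins of that test were FR. All bins, underreplicated ones included, were then sorted by the quartiles of single windows in the wild-type profile. The earliest quartile held 4 bins called higher and 75 called lower of 364 tested. The second quartile held 43 and 71 of 865, and the latest 296 and 1 of 491. In the third, 16.0% of 631 bins were called higher and 1.59% lower. In the latest quartile of FR bins alone, 73 of 206 were called higher and 0 lower, while both Rif1 libraries lay below both SuUR libraries in 7. The median wild-type score of FR bins in that quartile was -1.58, so they may include DNA that is copied incompletely. Over all bins, the median difference per bin went from -0.292 in the earliest quartile to -0.089, 0.208 and 0.839 in the latest. The earliest and second quartiles held FR bins only. In FR bins alone, the third and latest quartiles had medians of 0.199 and 0.478. The wild type took no part in the contrast, but its profile correlates with that of SuUR.

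**Figure D4:**
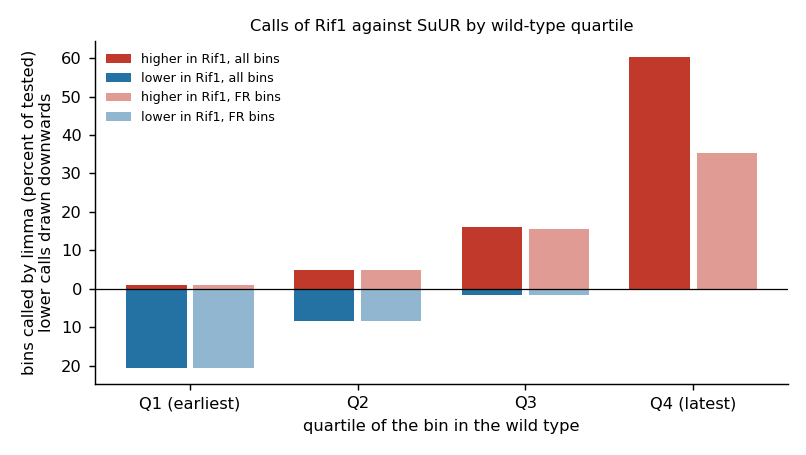
Percent of tested bins that limma called higher in Rif1 (drawn upwards) or lower in Rif1 (drawn downwards, y axis in percent of tested bins) by quartile of the bin in the wild type (x axis), for all bins (dark) and for FR bins alone (pale). Lower calls take 20.6% of the earliest quartile and higher calls 60.3% of the latest, or 35.4% in FR bins.

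Merged in one direction, the variant bins formed 54 runs, 44 higher in Rif1 over 24873 kb in all and 10 lower over 6622 kb. The 10 lower runs contained no underreplicated window, and in all 10 the mean of SuUR and the mean of the wild type were above 0, from 0.144 to 0.936 in SuUR, while the mean of Rif1 was above 0 in 1. Of the 44 higher runs, 33 contained underreplicated windows and 14 had less than 0.1 of their windows in such DNA.

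The longest lower run lay at the tip of 3L (3L:71290-1745100, 61A-62B, 284 genes from CG13405 to Gk2), a gene-rich stretch of 1674 kb that includes Ptp61F, a protein tyrosine phosphatase gene. It scored -0.327 and -0.104 in Rif1, 0.641 and 0.693 in SuUR, and 0.549 and 0.713 in the wild type. Rif1 was 0.883 lower, and 29 of its 32 bins were called by limma. The run at 85C-85F on 3R (3R:9168200-10056000, 164 genes) begins in pum, which encodes the RNA-binding repressor Pumilio, and scored -0.806 and -0.689 in Rif1 and 0.242 and 0.364 in SuUR, 1.05 lower, with 16 of 17 bins called. The run at 95A-95F (3R:23663000-24337000, 141 genes) scored -0.732 and -0.803 in Rif1 and 0.22 and 0.264 in SuUR, 1.01 lower, with 13 of 13 bins called. The run from 82E to 83B (3R:4995100-5676300, 120 genes, mtd among them) scored -0.338 and 0.015 in Rif1 and 0.652 and 0.728 in SuUR, 0.852 lower, with 10 of 13 bins called. In these 4 runs SuUR was within 0.15 of the wild-type mean, and both Rif1 libraries were below 0 in 3 of them.

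The longest higher runs with little or no underreplicated DNA, outside 2R, were shorter than the longest lower run. At 67D-67E (3L:9900900-10669000, 73 genes from nudE to simj, with dpr6 the longest) the scores were 0.476 and 0.224 in Rif1, -0.672 and -0.665 in SuUR, and -1.26 and -1.53 in the wild type. Rif1 was 1.02 higher, and 15 of 15 bins were called by limma. From 69E to 70B (3L:12866000-13477000, 103 genes), which holds caps, a leucine-rich repeat protein gene of neurons and muscles, the scores were 0.468 and 0.382 against -0.469 and -0.334, with 11 of 12 bins called. At 96F-97B (3R:26128000-26443000, 24 genes, osy the longest) they were 0.018 and -0.211 against -0.719 and -0.746, with 4 of 6 called. At 19F-20B (X:21343000-21654000, 39 genes, with DIP-beta, a partner of Dpr proteins) they were 0.541 and 0.265 against -0.310 and -0.543, with the wild type at -0.195 and -0.356. In the last of these SuUR was below the wild-type mean, and in the other 3 it was above it.

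**Figure D5:**
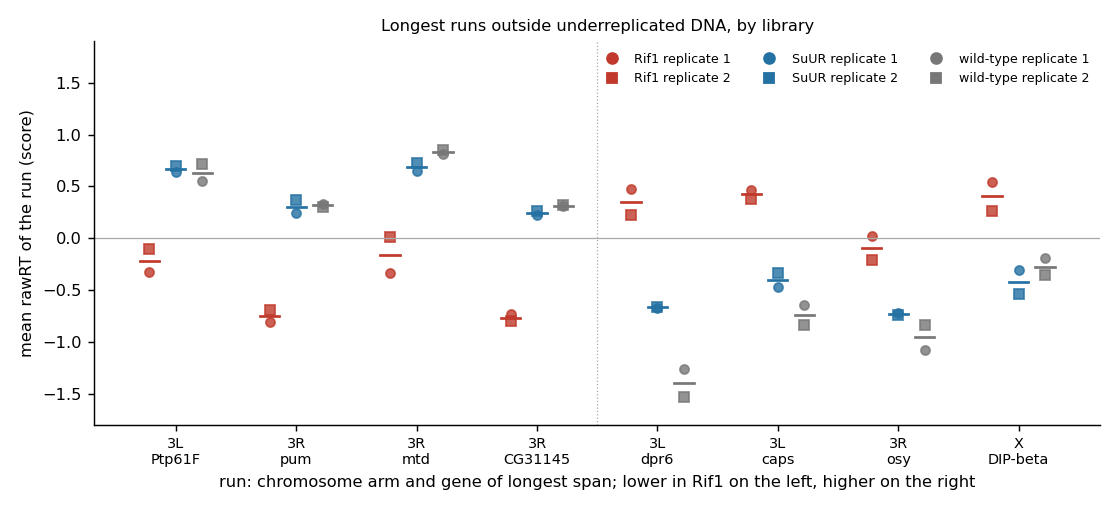
Mean rawRT (y axis, score) of the 4 longest runs lower in Rif1 (left) and the 4 longest runs higher in Rif1 (right) with less than 0.1 of their windows underreplicated and outside 2R, in each library; circles and squares are replicates 1 and 2, short lines are means, and runs are named by arm and the gene of longest span (x axis). SuUR lies near the wild type in the lower runs, and Rif1 lies apart from both in all 8.

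By the analysis of variance the direction of the difference was uneven over the arms, and less so by limma. The analysis of variance called 43 bins higher and 12 lower of 427 on X, 89 and 25 of 437 on 2L, and 55 and 0 of 439 on 2R. It called 96 and 42 of 496 on 3L, and 100 and 48 of 583 on 3R. Over all bins the shares were 16.1% and 5.33%, and all counts include underreplicated bins. Limma called 75 bins higher and 16 lower on 2R, so the arm is not without lower bins under the other test. Of the limma calls, 82.4% were higher on 2R, 80.6% on X, 78.6% on 2L, 70.4% on 3L and 66.25% on 3R. The mean over FR bins of X was -0.0072 and -0.020 in Rif1 and -0.076 and -0.016 in SuUR, which overlap, and over FR bins of the autosomes -0.023 and -0.040 against -0.078 and -0.043. At the free ends of the arms, the distal 500 kb of 2L had a median of -0.866 and -0.153 in Rif1 and 0.543 and 0.674 in SuUR, and that of 3L had -0.791 and -0.276 against 0.568 and 0.626. The distal 500 kb of 3R had -0.086 and 0.394 against 0.663 and 0.694. These 3 ends were lower in both Rif1 libraries, and in each of them Rif1 replicate 1 was the lower one. The ends of X and 2R overlapped, with -0.839 and -0.362 against -1.49 and -0.831 on X.

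Among single FR bins called by limma outside 2R, those with the lowest differences lay at the same tips, again with the Rif1 libraries apart from each other. The bin at 2L:111740-161740 (21B, Sam-S to spen) scored -1.01 and 0.261 in Rif1 and 0.901 and 1.40 in SuUR, a difference of -1.52 (SE 0.401, limma adjusted p = 0.0338). The neighbouring bins at 3L:131470-181460 (61B, Pdk1 to CG13875) and 3L:181470-231460 (61B, with rno) differed by -1.52 and -1.51. Without Rif1 replicate 1, the 3 differences were -0.890, -0.912 and -0.987, and each of the 3 bins lost its call without Rif1 replicate 1, without SuUR replicate 1 and without SuUR replicate 2. The highest difference among called FR bins outside 2R was 1.58 (SE 0.263, limma adjusted p = 0.00723). It lay at 3L:23191000-23249000 (80D-80E), whose only gene is nAChRalpha4, an acetylcholine receptor subunit gene. The bin at 2L:17957000-18007000 (36E, with btv, a dynein heavy chain gene) scored 0.237 and 0.290 against -1.18 and -1.01, a difference of 1.36 (limma adjusted p = 0.00219), and that at 3L:10469000-10519000 (67E, in Rbfox1) had one of 1.32 (limma adjusted p = 0.00387). The 2L bin adjoins the eUR region of CadN, and the wild type scored -1.70 and -2.47 in it. In the bin of Rbfox1 the wild type scored -1.43 and -1.31.

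Bins were also placed by their means in the quartiles of single windows of each genotype's own profile. A change of scale alone leaves this placing unchanged. How many bins reach an outer quartile depends on how far bin means spread compared with single windows, and differs between libraries. Of 343 bins in the latest quartile of SuUR, 196 were also in the latest quartile of Rif1, 90 were in the third, 52 in the second and 5 in the earliest. Of the 131 of these that were FR, counted without eUR, PH and partly underreplicated bins, 63 stayed in the latest quartile. Of 357 bins in the earliest quartile of SuUR, 147 were also in the earliest of Rif1, 158 in the second, 47 in the third and 5 in the latest. Bins chosen as extreme in one library move towards the middle in another by noise alone, and replicates show how far. Of the latest-quartile bins of SuUR replicates 1 and 2, 75.7% and 90.5% were in the latest quartile of the other SuUR library, and 48.4% to 64.2% in that of a Rif1 library. Of their earliest-quartile bins, 83.0% and 57.8% were shared with the other SuUR library and 19.9% to 52.5% with a Rif1 library. Counted from SuUR, the shares with Rif1 were below those between the SuUR replicates at both ends. The sets were unequal, and a smaller set bounds the share it can hold. The earliest quartile held 172 and 292 bins in the Rif1 libraries and 259 and 372 in the SuUR libraries. The latest held 241 and 266 against 341 and 285. Counted from Rif1, the shares with SuUR were not always lower than those between the Rif1 replicates. Of the earliest-quartile bins of Rif1 replicates 1 and 2, 87.2% and 51.4% were shared with the other Rif1 library. With the SuUR libraries, replicate 1 shared 40.1% and 43.0%, and replicate 2 shared 46.6% and 52.1%. Of their latest-quartile bins, 80.9% and 73.3% were shared with the other Rif1 library and 65.6% to 70.3% with a SuUR library.

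Local maxima of the profile, sites that score above their surroundings, were matched about as often between the mutants as between replicates. In FR there were 765 and 668 maxima for Rif1, 717 and 667 for SuUR, and 488 and 494 for the wild type. Of the maxima of Rif1 replicate 1, 58.6% had a maximum of Rif1 replicate 2 within 20 windows, and 61.6% and 55.9% had one of SuUR replicates 1 and 2. Of the maxima of SuUR replicate 1, 57.3% were matched in SuUR replicate 2, and 64.7% and 58.0% in the Rif1 libraries. Over all ordered pairs of mutant libraries, the share matched ran from 55.9% to 65.8% between genotypes and from 57.3% to 66.8% between replicates, so the ranges overlapped, and more maxima in a library give more matches by position alone. The share matched by position alone was not computed, so these shares cannot tell whether the mutants have maxima at the same places.

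Bins called lower in Rif1 were richer in genes and in G and C. The median was 14.5 protein-coding genes per 100 kb in the 156 FR bins called lower, 7.84 in the 217 called higher and 10.00 over all 2062 FR bins tested, and the median content of G and C was 44.1%, 41.4% and 42.6%. Spearman's rho of the bin score with G and C content was 0.431 and 0.481 for Rif1, 0.743 and 0.623 for SuUR and 0.492 and 0.580 for the wild type. With gene density it was 0.157 and 0.175 in Rif1, 0.269 and 0.351 in SuUR, and 0.340 and 0.426 in the wild type. The authors corrected coverage for G and C content before scaling, and the part that base composition has in the difference between the mutants was not tested.

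Gene lists were read against all 12960 protein-coding genes with a score in a tested bin, of which 1329 lay in bins called higher in Rif1 (10.3%) and 1181 in bins called lower (9.11%), with a median difference of -0.021. Genes of one list often share a bin, so their calls are not separate results. Of 44 measured genes of the dpr, DIP and beat families, immunoglobulin proteins that guide and match neurons, 18 lay in bins called higher and 2 in bins called lower, with a median difference of 0.459. In all, 10 of the 44 were in underreplicated bins. The 4 with the largest differences in called bins outside 2R were beat-Va (-1.07 and -0.070 in Rif1 against -2.75 and -1.39 in SuUR), beat-Ib (0.237 and 0.224 against -1.26 and -0.912), beat-IIIa (-0.225 and -0.108 against -1.70 and -1.24) and beat-Ic (0.081 and 0.269 against -1.43 and -0.793). Of 116 gustatory and olfactory receptor genes, 24 were in higher bins and 7 in lower bins. Or35a in 35D scored 0.431 and 0.308 in Rif1 against -1.67 and -1.88 in SuUR, and Gr36c and Gr36b in 36C lay in 1 bin called higher. Or85f in the run of pum went the other way, with -0.396 and -1.02 against 2.33 and 1.56.

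Of 83 ribosomal protein genes, expressed in all cells, 11 lay in bins called lower (13.3%) and 7 in bins called higher (8.43%), near the 9.11% and 10.3% of all genes, with a median difference of -0.22. RpL36A at 28D scored 1.10 and 1.53 in Rif1 and 2.34 and 3.24 in SuUR, RpL34b in the run of pum 0.803 and 1.18 against 2.52 and 1.96, and RpL35A at 83A -0.552 and -0.151 against 1.07 and 0.678. RpL21 at 40F, beside the heterochromatin of 2L, was in a bin called higher, but its own single window scored 1.25 and -2.07 against -2.55 and -0.888, which overlap. Of 67 cuticle protein genes, 3 were in higher and 5 in lower bins, with Cpr76Bd and Cpr76Bc in 1 lower bin, Cpr66Cb lower and Cpr35B higher.

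Genes of the gland and its hormone response were read against the same shares of 10.3% and 9.11%. Of 7 measured glue genes, which encode the secreted glue of the larval salivary gland, 1 was in a bin called higher (Sgs5, 0.284 and 2.71 in Rif1 against 0.018 and 0.833 in SuUR, overlapping in its own 2 windows), and Sgs3, ng3 and ng4 had differences of -0.960, -0.885 and 0.614 in bins not called. Of 15 ecdysone response genes, 2 were in bins called lower and 0 in bins called higher: Hr4, a nuclear receptor gene at 2B-2C, with -0.409 and -0.317 in Rif1 against 0.839 and 0.379 in SuUR, and usp, the partner of the ecdysone receptor, with 0.141 and 1.42 against 1.05 and 1.91, overlapping over its own windows. MsrA and Hr39 differed by 0.892 and -0.675 in bins not called. All 11 genes of the homeotic complexes had a positive difference, from 0.146 to 0.813, and 2 were in bins called higher, Dfd with -0.550 and -0.136 in Rif1 against -0.710 and -1.60 in SuUR and abd-A with -0.655 and -0.636 against -1.01 and -1.63. The 11 genes lie in 8 bins, and abd-A and Abd-B were the 2 in eUR bins. All genes had a median difference of -0.021, but their share with a positive difference was not counted. The genes pb and Abd-B differed by 0.559 and 0.514 in bins not called (limma adjusted p = 0.0790 and 0.0867).

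The remaining lists were read against the same shares of all genes, 10.3% in bins called higher and 9.11% in bins called lower. Of 21 replication genes, 1 was in a bin called higher (4.76%) and 2 in bins called lower (9.52%). These counts are too small to set apart from the shares of all genes. Rif1 itself, with its 4 windows without a score, was among the lower ones. The higher one was CycE, the cyclin that drives entry into S phase, at 35D (0.397 and 0.653 in Rif1 against -0.482 and -1.20 in SuUR, limma adjusted p = 0.00180 for its bin). Mcm5, Mcm6 and Mcm7, subunits of the replicative helicase, differed by 1.27, -1.12 and -1.02 in bins not called. Of 9 genes for heterochromatin proteins, 1 was in a bin called lower (11.1%, near the share of all genes). It was the gene of HP1a (-0.264 and -0.401 against 0.118 and 0.579). HP1c, HP1b and G9a differed by -0.797, 0.791 and 0.646 in bins not called. None of 5 measured chorion genes, which encode eggshell proteins, lay in a called bin. The bins of the X-linked cluster at 7F had limma adjusted p = 0.942 and 0.979, and Cp36, Cp7Fa, Cp7Fb and Cp7Fc differed by -0.630, 0.479, 0.442 and 0.389.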

How the data were processed

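Genomic DNA of salivary glands was sequenced in 2 libraries each of Rif1, SuUR and wild-type larvae, grouped by the labels. Alignment by the authors was to dm6 with BWA 0.7.17 (per the submitters' processing notes). They counted uniquely aligning reads in windows of 1000 alignable bases, corrected for G and C content, removed outlier windows and scaled the result to the deposited rawRT score. A second deposited table holds smoothed scores. The 0 columns of other series were left unused, and the fat body, follicle cell and wing disc columns were not used here. Depth is unknown, so precision rests on 2 libraries per genotype.

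Wild-type windows with a running median over 21 windows under -2.85, 1 SD below the mean, were underreplicated. Underreplicated runs were joined across gaps shorter than 10 windows, with a minimum length of 50 kb for eUR. From the centromere outwards, PH reached to the first 100 windows above the limit. Bins of 50 windows were tested by analysis of variance, following the methods, and by limma 3.58.1 (R 4.3.3). A bin was called underreplicated when at least 0.5 of its windows were. Maxima were taken on a running mean of 50 windows with a prominence of 0.5 SD, and flanks were 100 FR windows on each side. Genes and bands came from RefSeq. All 78 list symbols given by name were found, older ones through synonyms, and 12960 of 13845 protein-coding genes had values. The tests were tested on simulated data. Members, lists and naming rules were chosen with earlier results of these data known. By rule the text names, outside 2R, the 4 longest runs in each direction with under 0.1 of windows underreplicated. It also names the 4 highest and 4 lowest eUR regions and those in 35B to 36D. Named too are the 3 highest and 3 lowest FR bins among those called by limma, and up to 4 genes of each list. Loci of 2R other than Rif1 are not reported here. Alternatives covered bin size, scaling, filters, thresholds, the replicate number and each library left out.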

Additional observations from a re-analysis of the deposited data

Results flagged for a closer look

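Chromosome 4 lies outside the arms compared, and both Rif1 medians lay above both wild-type medians there, although close to wild-type replicate 2. Its 1181 windows had a median rawRT of 0.023 and -0.0060 in the Rif1 libraries, -1.72 and -0.046 for SuUR, and -1.97 and -0.090 for the wild type, so that Rif1 exceeded SuUR by 0.891 on average. The SuUR and wild-type libraries each split by replicate number, with replicate 1 low and replicate 2 near 0, and both Rif1 libraries were near 0. The difference from SuUR replicate 2 alone was small beside that split, and its source was not tested.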

How the results depend on the processing

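With bins of 25 windows the analysis of variance called 6.99% of bins, 94.9% of them higher in Rif1 and 0.357% of all bins lower, and with bins of 100 windows it called 37.7%, with 11.7% lower. Quantile normalization gave 52.6% of variant bins and 51.1% of limma calls as higher, with 8.52% and 14.6% of bins lower. It put the median difference at 1.00 in eUR and 0.876 in PH. Scaling by the signal gave 1.93 and 5.25, a wild-type limit of -1 gave 0.668 and 1.40, and means gave 1.55 in eUR. Without the eUR regions next to the centromeres, an alternative chosen after seeing the data, the eUR difference was 0.947. Leaving out 1 library gave 12.6% to 16.7% variant bins (74.6% to 84.2% of them higher, 2.10% to 4.11% of bins lower) and 6.72% to 16.8% limma calls (77.7% to 91.8% higher, 0.553% to 2.89% lower), with fewer samples by construction. Otherwise the cause was not tested.

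The replicate numbers do not establish pairs: with 2 pairs, the differences between replicates 1 and 2 correlated at 0.224 between the genotypes. With the replicate number as a block, limma called 832 bins (35.4%), 10.5% of all bins lower, and the analysis of variance called 515. All 601 and 510 bins called without the block were among them.

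Of the 8 named runs and 14 named eUR regions, none whose libraries did not overlap changed direction under quantile normalization, signal scaling or with a library left out. Of the 23 named genes in called bins, 8 to 16 lost the call with 1 library left out. FR medians of the mutants overlapped, and their difference ranged from -0.060 to 0.102 over the alternatives. With 2 libraries per genotype and unknown depth, small differences are not resolved.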
